A study of Mus musculus with 6 samples.

Results

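The genes described here are 10 ventricular thick and thin filament genes whose isoforms change as cardiomyocytes (CMs) mature after birth: Myh6, Myh7, Myh7b, Myl2, Myl3, Mybpc3, Tnnt2, Tnnt1, Tnni3 and Tnni1. They were taken by name, 10 of the 23337 genes in the count table, and all 10 passed edgeR's filter on low counts, as did 13754 genes in all. The study showed filament genes of these libraries too, so their direction is not independent evidence of a change. Wildtype mice received an AAV9 vector on postnatal day 1 that drives either serum response factor (SRF), a transcription factor, with GFP (group SRF-OE) or GFP alone (group GFP) from the cTNT promoter, at 5e8 vg per g. That promoter limits both transgenes to CMs. On postnatal day 14, CMs of the heart apex were released with collagenase, GFP-positive cells were sorted, and polyA RNA was profiled by RNA-seq. The dose gave mosaic transduction, and the sort aimed at transduced CMs. For its Srf knockout, the paper holds that sorting of large CMs was likely imperfect. Marker genes of other cell types, given below, were read in every library.

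The labels list 3 libraries in each group, but where the counts of SRF-OE replicate 1 would stand, the table has gene lengths, so that by their headers 2 columns of counts are SRF-OE and 3 are GFP, with 14137433 to 23159631 counts each. The headers may be displaced by 1 column. The library labelled GFP1 would then belong to SRF-OE, and the replicate numbers of the others would change. The files do not settle this, so every group mean, fold change and replicate number below holds as far as the headers are right. Srf was at 360 and 748 CPM (counts scaled to a common library size with TMM) in SRF-OE replicates 2 and 3 and at 67.3 and 85.1 CPM in GFP replicates 2 and 3. The library labelled GFP1 had 338 CPM of Srf, far above the other GFP libraries and near SRF-OE replicate 2, and the main results are given with and without it. Where 3 GFP values are listed, the library labelled GFP1 comes first, then replicates 2 and 3. Over the 5 libraries edgeR's log2 fold change of Srf, with its standard error (SE), was 1.76 (SE 0.71, adjusted p = 0.36), and leaving out the library labelled GFP1 gave 2.87 (SE 0.37, adjusted p = 0.044). Without SRF-OE replicate 3 it was 1.13. Xist, the transcript of the inactive X chromosome, was detected in SRF-OE replicate 2 (147 CPM) and GFP replicate 2 (88.8 CPM), while the other 3 libraries had at most 0.743 CPM.

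The sarcomere slides myosin thick filaments along actin thin filaments. Myosin heavy chains are the motors, essential and regulatory light chains stiffen and tune their lever arms, and myosin binding protein C holds the heads in check. On the thin filament, the troponin complex releases the block on myosin binding when calcium rises: troponin T anchors the complex to tropomyosin and troponin I inhibits contraction. The mouse ventricle replaces Myh7 by Myh6 and the slow skeletal troponin I, Tnni1, by the cardiac form, Tnni3, around birth, and the ratio within each pair is a standard measure of CM maturity.

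Several of the genes lie side by side in the genome. On the minus strand of chromosome 14 in GRCm38, Myh6 (54941921 to 54966927) and Myh7 (54970684 to 54994626) are 3756 bp apart. Tnnt1 (4504570 to 4516382) and Tnni3 (4518305 to 4524229) are 1922 bp apart on chromosome 7, also on the minus strand. Tnni1 (135779434 to 135810989) and Tnnt2 (135836354 to 135852260) share the plus strand of chromosome 1, separated by 25364 bp. Myl2 is on chromosome 5 (122100951 to 122113472), Myl3 on chromosome 9 (110741861 to 110769798), and Mybpc3 (91118144 to 91136516) and Myh7b (155611212 to 155634307) both on chromosome 2.

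SRF binds the CArG box, and the windows below show where that box and motifs of other muscle factors stand in the promoters of these genes. RefSeq promoters of GRCm38.p6, from 250 bases before to 50 after a start site, matched all 10 genes in 14 windows. The CArG box was searched as the exact sequence CCWWWWWWGG, where W is A or T. It was in 1 of the 14 windows, that of Myl3, against 1.63% of all 32851 promoters. Near matches were not counted, such as CCAAATTTAG in the Myh6 window, which differs in 1 base. A window without the exact box is therefore not shown to lack an SRF site. The paper reports strong SRF occupancy close to the promoters of Myh6, Myl2, Myl3 and Tnni3. The MCAT element of TEAD factors (CATTCC, either strand) was in 4 of 14 windows, those of Myh6, Myh7, Myl3 and Tnnt2, against 14.7% of all promoters. A MEF2 site was in the Mybpc3 window alone among the 14, against 3.19% of all promoters. The GATA element (AGATAA, either strand) was in 3 of 14, of Myh7b, Myl2 and Tnnt2, against 11.2%. The RefSeq start site of Myl2 lies upstream of the GENCODE gene start, so its window may not be its main promoter. In Myl7, the atrial regulatory light chain used below as a partner of Myl2, a CArG box stood beside an MCAT element. The windows are shown with the motif in capitals, each read 5′ to 3′ on the strand of its gene.
Myl3, CArG box at 85 bases before the start site, chr9:110763563-110763632, plus strand: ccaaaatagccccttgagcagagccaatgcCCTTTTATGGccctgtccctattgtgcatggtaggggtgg
Myl7, CArG box at 61 bases before the start site, chr11:5898804-5898873, minus strand: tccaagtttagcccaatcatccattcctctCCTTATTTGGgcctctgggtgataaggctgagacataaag
Mybpc3, MEF2 site at 90 bases before the start site, chr2:91118024-91118093, plus strand: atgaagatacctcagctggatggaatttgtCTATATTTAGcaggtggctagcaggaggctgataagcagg
Myh6, MCAT element on the opposite strand, chr14:54966778-54966843, minus strand: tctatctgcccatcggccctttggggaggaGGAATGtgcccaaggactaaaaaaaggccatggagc
Myh7, MCAT element on the opposite strand, chr14:54994792-54994857, minus strand: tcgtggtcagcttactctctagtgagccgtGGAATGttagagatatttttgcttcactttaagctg
Tnnt2, MCAT element 27 bases before the start site, chr1:135836277-135836342, plus strand: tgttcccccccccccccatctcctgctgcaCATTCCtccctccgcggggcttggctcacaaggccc

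The 3 myosin heavy chain genes also carry miRNAs in their introns, which are known to repress genes of other fibre types. The 2 hosted by Myh6 and Myh7 have the same seed (bases 2 to 8, in capitals), and the seed of the miRNA in Myh7b differs from it in its last base only. Mature miRNAs were not measured in these polyA libraries, but reads that overlap the hairpins were counted.
mmu-miR-208a-3p, hosted by Myh6: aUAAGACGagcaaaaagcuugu
mmu-miR-208b-3p, hosted by Myh7: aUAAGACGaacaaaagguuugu
mmu-miR-499-5p, hosted by Myh7b: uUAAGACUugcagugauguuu
The Mir208b hairpin had 166 and 207 counts in SRF-OE replicates 2 and 3 and 191, 197 and 128 counts in the library labelled GFP1 and GFP replicates 2 and 3. The Mir208a hairpin had 14 and 11 counts in SRF-OE and 12, 21 and 11 in GFP. Reads at Mir208b were thus more frequent than at Mir208a in all 5 libraries, opposite to the order of their host genes given below. In CPM, Mir208b ranged from 9.04 to 10.1 CPM, a spread of 1.12-fold between libraries. Mir499 was listed at 0 in all 5 libraries, and 0 counts allow up to 3 by counting error.

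In levels per length, the 10 genes fell into a high and a low tier in all 5 libraries. The adult isoforms Myl3, Myl2, Myh6, Tnnt2 and Tnni3 stood between 4540 and 11809 CPM per kb of gene length. Mybpc3 lay below them at 874 to 2394 CPM per kb, and its range did not overlap theirs. The immature or minor isoforms Tnni1, Myh7, Tnnt1 and Myh7b lay at 9.08 to 191 CPM per kb, and among these the ranges of Tnni1, Myh7 and Tnnt1 overlapped while Myh7b was below all 3. Myh6 was above Tnnt2, and Tnnt2 above Tnni3, in 5 of 5 libraries, but the order of Myl3, Myl2 and Myh6 changed between libraries. Together the 10 genes took 8.02% and 7.31% of all counts in SRF-OE replicates 2 and 3 and 7.66%, 9.18% and 10.2% in the library labelled GFP1 and GFP replicates 2 and 3. Myh6 alone took from 4.40% to 6.17%.

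**Figure D1:**
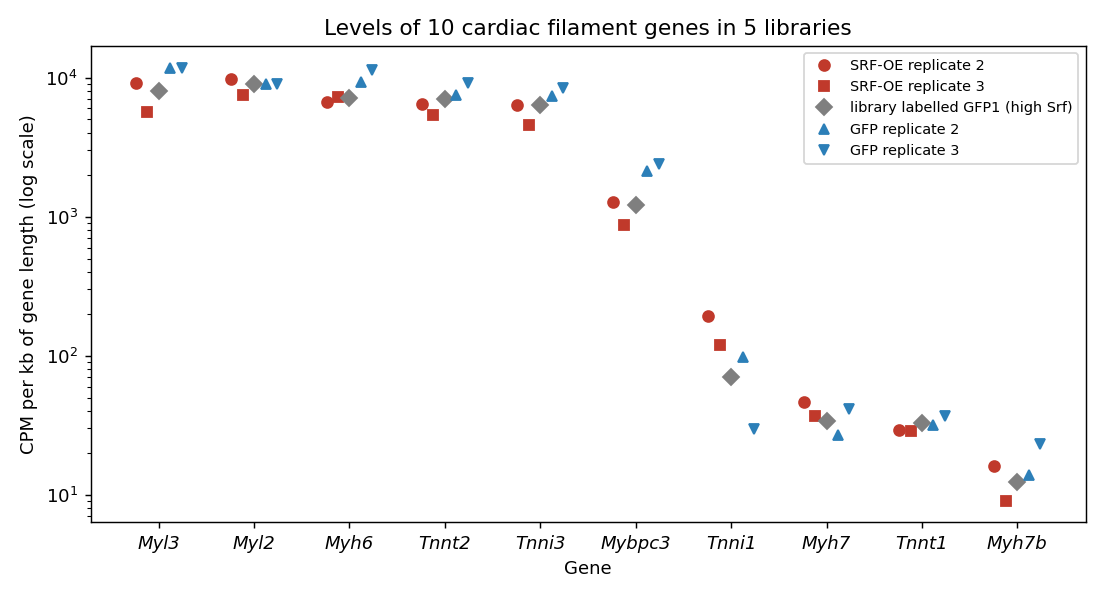
CPM per kb of gene length on a log axis for the 10 genes (horizontal axis), with 1 point per library. The adult isoforms at the left stand above 4500 CPM per kb, Mybpc3 is in between, and Tnni1, Myh7, Tnnt1 and Myh7b at the right lie under 200 CPM per kb in every library.

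Compared between groups over the 5 libraries, 0 of the 10 genes passed an adjusted p of 0.05, as did 0% of all genes tested with edgeR. At an unadjusted p under 0.05, 1 of the 10 genes was higher, Tnni1, where 6.35% of all genes were, and 0 were lower, where 7.59% of all genes were. The fold changes were positive for Tnni1 and Myh7 and negative for the other 8, of which Tnnt1 and Myl2 turned positive under the scaling to CM markers given below, with a median of -0.41 on the log2 scale against 0.03 over all genes tested. The groups did not overlap for 4 genes. Tnni1 was higher in SRF-OE without overlap, where 16.1% of all genes were, and Tnni3, Tnnt1 and Tnnt2 were lower, 3 of the 10 where 17.3% of all genes were. Against GFP replicates 2 and 3 alone, 6 of the 10 genes were lower in SRF-OE without overlap, where 30.2% of all genes were, since Myh6, Myl3 and Mybpc3 joined the other 3. In that comparison 0 of the 10 genes passed an adjusted p of 0.05, where 2.95% of all genes did. In bulk RNA, fewer cells of a type and less RNA per cell cannot be told apart.

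Myh6, the fast adult motor, was at 40537 and 44087 CPM in SRF-OE replicates 2 and 3 and at 43611, 56916 and 68849 CPM in the library labelled GFP1 and GFP replicates 2 and 3. Both SRF-OE libraries were below GFP replicates 2 and 3, and the library labelled GFP1 lay between the SRF-OE values. SRF-OE averaged 42312 ± 2510 CPM (SD, n = 2) against 56459 ± 12625 CPM (SD, n = 3), with a log2 fold change of -0.42 (SE 0.39, adjusted p = 0.62). Leaving out the library labelled GFP1 gave -0.57 (SE 0.33, adjusted p = 0.31), and leaving out GFP replicate 3 gave -0.25.

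Myh7, the slow motor of the fetal ventricle, was at 281 and 224 CPM in SRF-OE and at 207, 164 and 252 CPM in GFP. The groups overlapped, because GFP replicate 3 stood above SRF-OE replicate 3. The log2 fold change was 0.28 (SE 0.21, adjusted p = 0.53) with the 5 libraries and 0.29 (SE 0.23, adjusted p = 0.45) when the library labelled GFP1 was left out. It depended more on other libraries, at 0.11 without SRF-OE replicate 2, 0.14 without GFP replicate 2, 0.43 without SRF-OE replicate 3 and 0.45 without GFP replicate 3. Of the stretches of 50 bases in a Myh7 transcript, 22.2% also occur in Myh6, and 13.3% of the exon bases of Myh7 lie under other annotated genes, among them the antisense transcript Mhrt. The library kit does not mark strand, so how reads there were shared out is uncertain.

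Myh7b, an ancient slow-type myosin with little protein in the heart, was at 98.5 and 56.0 CPM in SRF-OE and at 75.9, 86.0 and 143 CPM in GFP. The 2 SRF-OE libraries differed from each other, and the groups overlapped. The log2 fold change was -0.40 (SE 0.34, adjusted p = 0.59), and it was -0.05 without SRF-OE replicate 3, -0.07 without GFP replicate 3 and -0.86 without SRF-OE replicate 2. Leaving out the library labelled GFP1 gave -0.56.

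Among the light chains, Myl2, the ventricular regulatory chain, was the steadiest of the 10 genes within GFP. It was at 5663, 5739 and 5678 CPM in the library labelled GFP1 and GFP replicates 2 and 3, and at 6232 and 4756 CPM in SRF-OE replicates 2 and 3, on either side of all GFP values. The log2 fold change was -0.05 (SE 0.23, adjusted p = 0.93), and leaving out the library labelled GFP1 also gave -0.05. It was -0.26 without SRF-OE replicate 2 and 0.12 without SRF-OE replicate 3. Myl3, the ventricular essential chain and the gene with the CArG box shown above, was at 8236 and 5051 CPM in SRF-OE and at 7240, 10605 and 10599 CPM in GFP. Both SRF-OE values were below GFP replicates 2 and 3, and the library labelled GFP1 lay between them. The log2 fold change of Myl3 was -0.51 (SE 0.33, adjusted p = 0.48), and -0.67 (SE 0.29, adjusted p = 0.20) without that library. The SRF-OE libraries set its size, which was -0.91 without replicate 2 and -0.21 without replicate 3 of that group.

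Mybpc3, cardiac myosin binding protein C, had the lowest fold change of the 10 genes. It was at 5312 and 3629 CPM in SRF-OE, at 8875 and 9933 CPM in GFP replicates 2 and 3, and at 5044 CPM in the library labelled GFP1. That library again lay between the SRF-OE values, and the other GFP libraries stood well above both. SRF-OE averaged 4470 ± 1190 CPM (SD, n = 2) against 7951 ± 2572 CPM (SD, n = 3), which gave a log2 fold change of -0.83 (SE 0.37, adjusted p = 0.37). Without the library labelled GFP1 it was -1.07 (SE 0.26, adjusted p = 0.071). DESeq2, the tool of the study, gave 7 of the 10 genes an adjusted p with the 5 libraries. It called 1 of them lower, Mybpc3 (log2 fold change -0.84, adjusted p = 0.045). Of all genes only 1167 had an adjusted p in that fit, and 18.3% of these were called lower. Without the library labelled GFP1, DESeq2 called 3 of the 10 lower, where 6.14% of all genes with an adjusted p were.

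On the thin filament, Tnnt2, cardiac troponin T, was at 7716 and 6378 CPM in SRF-OE and at 8431, 8926 and 10825 CPM in GFP. The groups did not overlap, and the log2 fold change was -0.41 (SE 0.26, adjusted p = 0.47), or -0.48 against GFP replicates 2 and 3. Tnnt1, slow skeletal troponin T, was at 27.2 and 26.9 CPM in SRF-OE and at 30.8, 29.5 and 34.6 CPM in GFP. The groups did not overlap here either, with a small log2 fold change of -0.22 (SE 0.14, adjusted p = 0.46), or -0.24 against GFP replicates 2 and 3. The largest Tnnt1 value was 1.28-fold the lowest, the narrowest range of the 10 genes over the 5 libraries.

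Tnni3, cardiac troponin I, was at 5222 and 3741 CPM in SRF-OE and at 5251, 6064 and 6948 CPM in GFP. All GFP values were above both SRF-OE values, but the library labelled GFP1 exceeded SRF-OE replicate 2 only slightly. The log2 fold change was -0.44 (SE 0.26, adjusted p = 0.45), or -0.53 against GFP replicates 2 and 3. It was -0.70 without SRF-OE replicate 2 and -0.23 without SRF-OE replicate 3. Tnni1, the troponin I of the fetal heart and of slow skeletal muscle, differed in the other direction. It was at 213 and 134 CPM in SRF-OE replicates 2 and 3 and at 78.0, 109 and 33.2 CPM in the library labelled GFP1 and GFP replicates 2 and 3. The groups did not overlap, though SRF-OE replicate 3 and GFP replicate 2 were close, and GFP replicate 3 stood far below the other 4 libraries. The log2 fold change was 1.24 (SE 0.46, adjusted p = 0.36, unadjusted p = 0.033), the highest of the 10. Without GFP replicate 3 it was 0.89 (adjusted p = 0.75), and leaving out the library labelled GFP1 gave 1.29 (adjusted p = 0.18). In a fit that blocks on the number of each replicate, Tnni1 was 1 of 10 genes called higher (1.48, adjusted p = 0.028), where 4.23% of all genes were. That fit gives almost no weight in the fold change to the library labelled GFP1, the only one with its number.

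The ratio within an isoform pair does not depend on how libraries are scaled. Per kb, Myh6 exceeded Myh7 by 144-fold and 196-fold in SRF-OE replicates 2 and 3, and by 210-fold, 346-fold and 272-fold in the library labelled GFP1 and GFP replicates 2 and 3. Of all counts on both genes, Myh7 took 0.687% (95% Wilson interval 0.668% to 0.707%) and 0.506% (0.492% to 0.520%) in SRF-OE. In GFP it took 0.473% (0.459% to 0.487%), 0.287% (0.278% to 0.296%) and 0.365% (0.353% to 0.378%). These intervals cover counting error only. Both SRF-OE libraries had the larger Myh7 share, but SRF-OE replicate 3 and the library labelled GFP1 were near each other. The log2 ratio was -7.39 ± 0.31 (SD, n = 2) in SRF-OE and -8.08 ± 0.36 (SD, n = 3) in GFP, a 1.61-fold higher ratio (exact permutation test, two-sided, p = 0.2). Against GFP replicates 2 and 3 the ratio was 1.83-fold higher.

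For troponin I the difference was wider. Per kb, Tnni3 exceeded Tnni1 by 33.1-fold and 37.8-fold in SRF-OE replicates 2 and 3 and by 91.0-fold, 75.4-fold and 283-fold in the library labelled GFP1 and GFP replicates 2 and 3. Tnni1 took 3.92% (3.80% to 4.05%) and 3.45% (3.33% to 3.57%) of the counts on both genes in SRF-OE. In GFP its share was 1.46% (1.39% to 1.54%), 1.76% (1.69% to 1.83%) and 0.476% (0.433% to 0.524%). The 2 SRF-OE libraries were close to each other, and all GFP libraries, that labelled GFP1 included, were below them. The log2 ratio was -5.14 ± 0.14 (SD, n = 2) against -6.96 ± 1.03 (SD, n = 3), a difference of 1.82 or 3.52-fold (exact permutation test, two-sided, p = 0.1). This is the smallest p that 2 against 3 libraries can give, and adjusted over 5 ratios it was 0.375 in the permutation test. GFP replicate 3 widened the difference: without it the log2 difference was 1.23, and without the library labelled GFP1 it was 2.04.

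The pair Tnnt1 and Tnnt2 had the smallest difference of the 5 ratios. Tnnt2 exceeded Tnnt1 per kb by 222-fold and 185-fold in SRF-OE and by 214-fold, 237-fold and 245-fold in GFP. The groups overlapped, and the ratio was 1.14-fold higher in SRF-OE (exact permutation test, two-sided, p = 0.3).

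**Figure D2:**
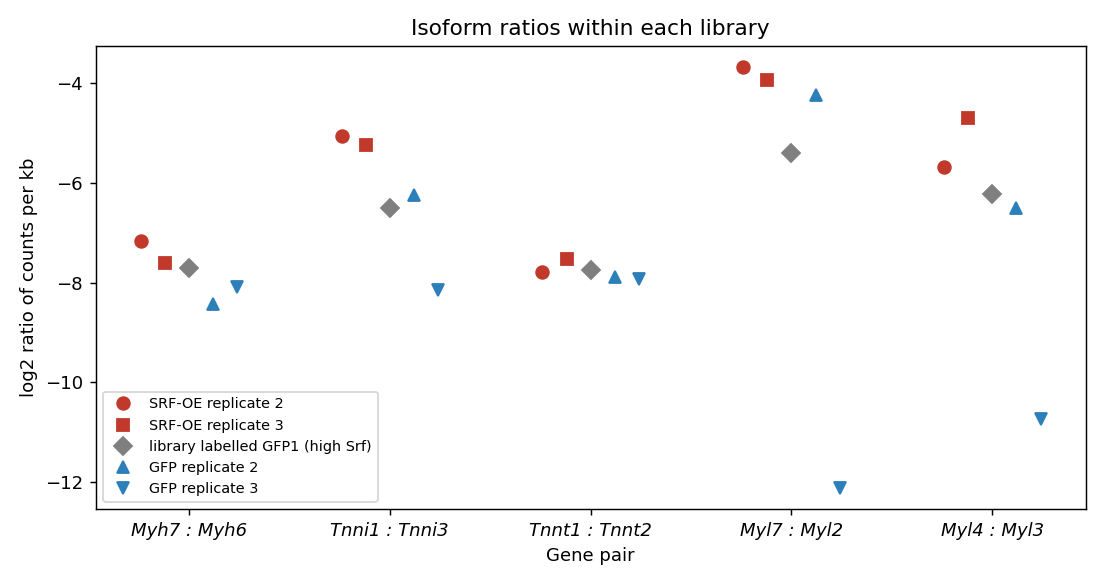
Log2 ratio of counts per kb within each library for 5 gene pairs, the immature, atrial or (for Tnnt1) slow skeletal form first, with 1 point per library. The 2 SRF-OE points lie above the GFP points for all pairs but Tnnt1 to Tnnt2, and GFP replicate 3 is far below the rest for the pairs with Myl7, Myl4 and Tnni1.

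The study names Myl7 and Myl4, the light chains of atrial and fetal CMs, as immature counterparts of Myl2 and Myl3. The Myl7 to Myl2 ratio per kb was 7.84% and 6.53% in SRF-OE, and 2.36%, 5.31% and 0.0224% in the library labelled GFP1 and GFP replicates 2 and 3. The Myl4 to Myl3 ratio was 1.95% and 3.85% in SRF-OE, and 1.34%, 1.11% and 0.0583% in GFP. The groups did not overlap in either pair, but GFP replicate 3, with 15 counts of Myl7 and 77 of Myl4, widened both differences. The log2 difference was 3.45 for Myl7 to Myl2 (exact permutation p = 0.4) and 2.63 for Myl4 to Myl3 (exact permutation p = 0.3), and without GFP replicate 3 these were 1.01 and 1.17. Adjusted over the 5 ratios, the exact permutation p was 0.375 for the Myh7, Tnnt1 and Myl4 pairs and 0.4 for the Myl7 pair.

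Atrial marker genes differed between libraries in 2 ways. Sln, the atrial regulator of the calcium pump, was at 64.8 CPM in SRF-OE replicate 2 and reached 74.0 CPM in GFP replicate 2, but at 2.71, 8.84 and 0.237 CPM in SRF-OE replicate 3, the library labelled GFP1 and GFP replicate 3. Dkk3 was high in the same 2 libraries, with 49.5 and 45.2 CPM there and at most 5.56 CPM in the other 3. Myl7 followed them only in part: it was at 455 and 289 CPM in SRF-OE replicates 2 and 3, and at 125, 284 and 1.18 CPM in GFP. SRF-OE replicate 3 thus had as much Myl7 as GFP replicate 2 with far less Sln, and the highest Nppa of the 5 libraries (1910 CPM). Tnni1 was higher in SRF-OE replicate 3 than in GFP replicate 2. Within each group, however, Sln, Dkk3, Myl7 and Tnni1 ranked the libraries alike. In SRF-OE, replicate 2 was above replicate 3. In GFP, replicate 2 was highest, then the library labelled GFP1, then replicate 3. Myl4 and Nppa kept this order in GFP but not in SRF-OE. All 5 atrial markers were detected in every library, with a summed level of 2369 and 2396 CPM in SRF-OE and 917, 1715 and 186 CPM in GFP. Nppa alone made up most of that sum in every library, at 1641 and 1910 CPM in SRF-OE and 683, 1196 and 177 CPM in GFP. The paper uses Nppa as a marker of cardiac stress, so the sum is not a measure of atrial cells alone. The part of the atrial markers in the Tnni1, Myl7 and Myl4 results was not tested.

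**Figure D3:**
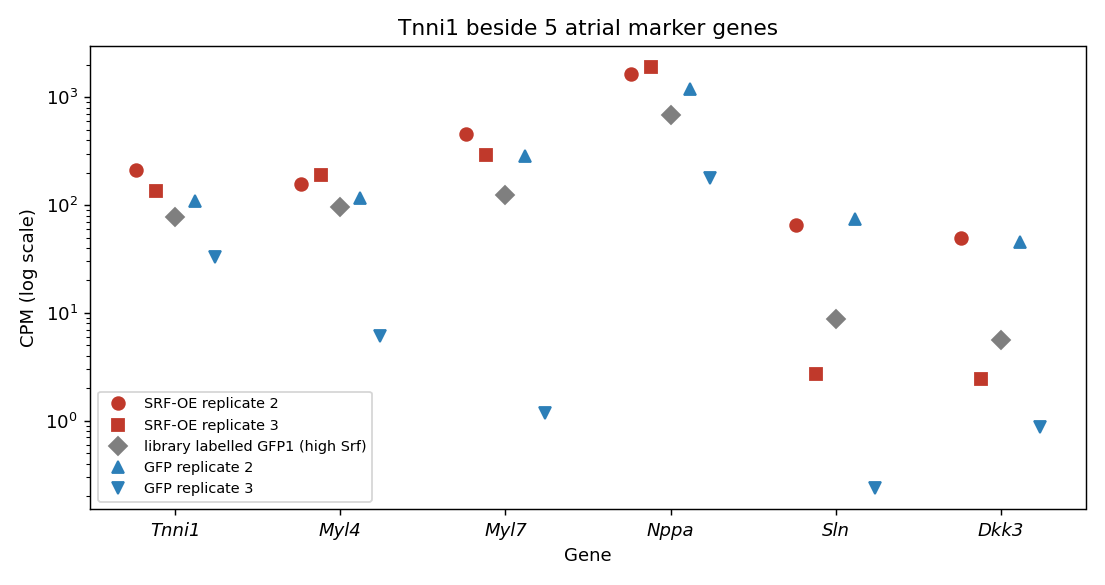
CPM on a log axis for Tnni1 and 5 atrial marker genes, with 1 point per library. GFP replicate 3 is lowest for all 6 genes. Sln and Dkk3 are high only in replicate 2 of each group among the 5 libraries, whereas Myl4, Myl7 and Nppa are also high in SRF-OE replicate 3.

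Other CM genes mostly had lower values in SRF-OE as well. The 6 CM markers (Ttn, Ryr2, Actn2, Pln, Atp2a2 and Tnnc1) had a median log2 fold change of -0.40, 0 of the 6 passed, and their summed level was 31921 and 28056 CPM in SRF-OE and 34124, 41161 and 46162 CPM in GFP. Ttn, the giant spring protein, was the exception, at 8181 and 7456 CPM in SRF-OE and 6816, 5752 and 7845 CPM in GFP. When libraries were scaled to the geometric mean of these 6 genes, a setting chosen after seeing the data, the median of all genes rose from 0.03 to 0.40 and the median of the 10 genes was -0.016. Under that scaling Myh6 (-0.02), Tnni3 (-0.07) and Tnnt2 (-0.04) had fold changes near 0. Myh7 (0.65, SE 0.20) and Tnni1 (1.55, SE 0.46) were above them and Mybpc3 (-0.44, SE 0.22) below. For both Myh7 and Tnni1 the adjusted p was 0.28, and both values stand beside the median of 0.40 over all genes. Tnnt1 and Myl2 turned from negative to positive under it, at 0.15 and 0.30.

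**Figure D4:**
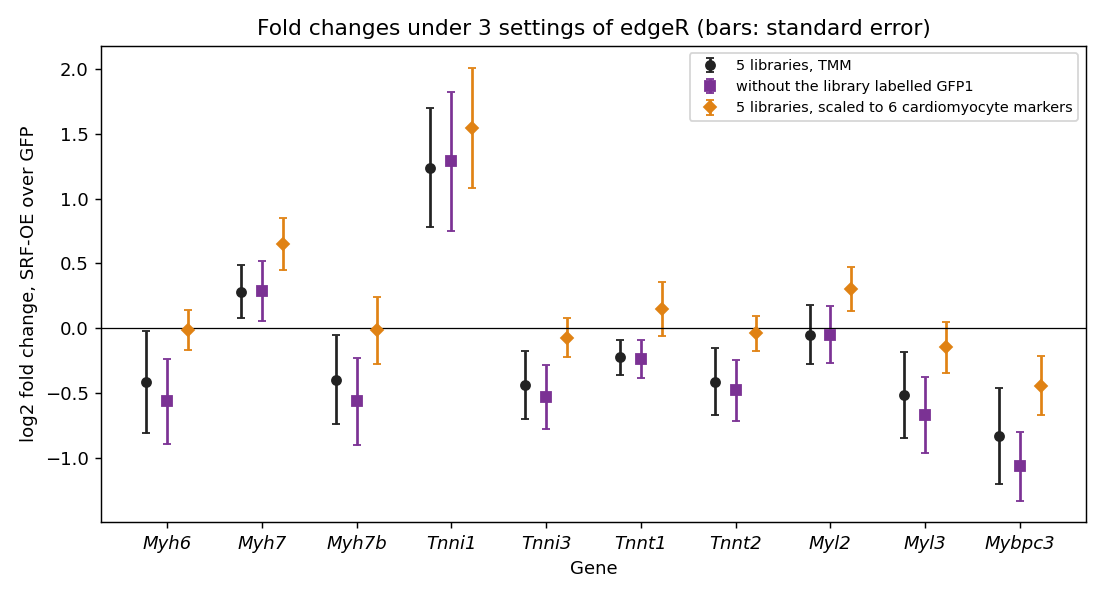
Log2 fold change of SRF-OE over GFP for the 10 genes with standard errors as bars, under 3 settings of edgeR. With TMM scaling 8 genes are below 0, with or without the library labelled GFP1, and after scaling to CM markers Tnni1 and Myh7 stand above the rest and Mybpc3 lowest.

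Markers of other cells varied between libraries as well, with 0 genes called in any of the lists over the 5 libraries. The summed level of 10 endothelial genes was 907 and 355 CPM in SRF-OE and 703, 382 and 373 CPM in GFP, and that of 8 fibroblast genes 914 and 457 CPM against 495, 390 and 333 CPM. The 6 smooth muscle genes were at 155 and 225 CPM in SRF-OE and 113, 56.0 and 94.4 CPM in GFP, without overlap. Of all single genes, 16.1% were higher without overlap. Smooth muscle actin, Acta2, which is not on that list, went the other way, at 530 and 372 CPM in SRF-OE and 463, 1018 and 1464 CPM in GFP, with overlap. The 6 leukocyte genes stayed between 9.63 and 30.4 CPM. Of the erythroid genes, Hba-a1 and Hba-a2 were at 0 in every library and Alas2 was at 0.238 to 1.503 CPM. The 6 skeletal muscle genes were at 1075 and 3220 CPM in SRF-OE and at 2123, 51.1 and 94.1 CPM in GFP. Only 3 of these 6 were expressed enough to be tested. The skeletal myosins of that list, Myh1 and Myh4, were at most 0.481 and 0.474 CPM in any library, so the sum came from its other genes. The endothelial, fibroblast and leukocyte sums were highest in SRF-OE replicate 2 and the library labelled GFP1, and their part in the levels of the 10 genes was not tested.

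Other isoforms of the same filament families were a mixed group. Of 26 such genes, 20 were expressed enough to be tested, 0 passed in either direction with the 5 libraries, and 2 were higher at an unadjusted p under 0.05, a test that 6.35% of all genes passed in that direction. Their median log2 fold change was 0.59, against -0.41 for the 10 genes and 0.03 for all genes. Without the library labelled GFP1, 4 of the 20 were higher and 1 lower, where 1.98% of all genes were higher and 0.97% lower. Named after their values were seen, the 4 were the light chains Myl1 (4.16) and Myl6 (1.51), fast skeletal troponin T, Tnnt3 (6.83), and tropomyosin Tpm3 (1.14), and the lower gene was smooth muscle actin, Acta2 (-1.45). With the 5 libraries the 4 were at 0.97, 1.13, 1.04 and 0.64 in this order. Tnnt3 was at 0.138 and 0.0789 CPM in GFP replicates 2 and 3, so its 6.83 rests on values near 0. The library labelled GFP1 had 19.6 CPM of Tnnt3 and 1458 CPM of Myl1, above SRF-OE replicate 2 (4.86 and 406 CPM). In the fit that blocks on the replicate number, 6 were higher and 1 lower, where 4.23% and 3.14% of all genes were. The best expressed were Actc1, Tnnc1, Tpm1 and Acta1. Actc1, cardiac actin, was at 20084 and 14732 CPM in SRF-OE and at 20704, 29237 and 32187 CPM in GFP, a log2 fold change of -0.65 (SE 0.36). Tnnc1, cardiac troponin C, and Tpm1, the main cardiac tropomyosin, had log2 fold changes of -0.29 and -0.52. Like Actc1 they were lower in SRF-OE without overlap between groups, where 17.3% of all genes were. Acta1, skeletal actin, which the fetal heart also uses, was at 2673 and 12358 CPM in SRF-OE, at 7730 CPM in the library labelled GFP1, and at 442 and 842 CPM in GFP replicates 2 and 3. Its log2 fold change was 1.32 (SE 1.22, adjusted p = 0.61), and leaving out the library labelled GFP1 gave 3.56 (adjusted p = 0.061). With the block it was 3.24 and passed (adjusted p = 0.012).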

How the data were processed

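RNA-seq libraries (SMART-Seq v4 and Nextera XT, single-end) were aligned to mm10 with STAR 2.5.3a and counted per gene with featureCounts of Subread 1.5.2, according to the submitters' processing notes and the paper. The authors deposited raw counts per gene in 1 table, with no normalization. Of its 6 named columns, that of SRF-OE replicate 1 was gene length by its values: it has 0 zeros, and 72.1% of 20929 genes lie within 5% of a GENCODE transcript length. It was used only as length, leaving 5 libraries of a design made for 6, and 0 columns of values were unassigned. Libraries were grouped by their column names, and no level was used to regroup them. The headers may be displaced by 1 column, which would change the group of the library labelled GFP1 and the replicate numbers, and the files do not settle it. Settings for strand and multiply mapped reads were not given in the sources used here.

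Groups were compared with edgeR 4.0.16 (R 4.3.3: filterByExpr, TMM, glmQLFit, glmQLFTest) over all genes, with Benjamini-Hochberg adjustment and a cutoff of 0.05. The standard error is the log2 fold change divided by the root of F. CPM used TMM-scaled library sizes. Ratios were compared by exact permutation over libraries (scipy 1.17.1). The edgeR and DESeq2 fits were run on counts simulated from these same libraries, grouped by their headers. That run checks the code only, and cannot test the headers or the error rates in the real data. The labels call the replicates biological but do not say whether they are separate animals, so p-values measure the spread between these libraries. Alternatives were DESeq2 1.42.0, its size factors, upper quartile scaling, other filters, the replicate number as a block, and leaving out each library. The members and lists were chosen with earlier results of these data known. The genes named are the 10 members, Srf, Myl4, Myl7, and the 4 best expressed of each list of genes. Xist and single marker genes (Nppa, Sln, Dkk3, Ttn, Alas2, Myh1, Myh4 and the globins), and Dio2, Nfatc4, Prox1, Myl1, Myl6, Tnnt3, Tpm3 and Acta2, are named outside this rule, after their values were seen. Positions are from GENCODE M21, promoters and miRNAs from RefSeq.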

Additional observations from a re-analysis of the deposited data

How the results depend on the processing

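Every alternative kept the sign of the fold change for Myh6, Myh7, Myh7b, Tnni1, Tnni3, Tnnt2, Myl3, Mybpc3 and Srf, and all alternatives to the 5 ratios kept a higher ratio in SRF-OE. Myl2 ranged from -0.26 to 0.12 with 1 library left out, turning to 0.12 without SRF-OE replicate 3, and it was 0.30 with scaling to CM markers, and Tnnt1 was 0.15 with that scaling. A replicate block called 1 of the 10 genes higher instead of 0 (Tnni1, 1.48). The library labelled GFP1 is alone under its replicate number, so the block fits it by itself. Leaving it out of the block (again 1.48) therefore could not test its effect. The number called lower went from 0 to 1 with DESeq2 and to 3 with DESeq2 without that library (Mybpc3, Myl3 and Myh6, at -1.08, -0.68 and -0.57). The median log2 fold change of the 10 genes, -0.41, was -0.20 without GFP replicate 3 and -0.016 with scaling to CM markers. The causes of these shifts were not tested. With 1 library left out, the number called stayed at 0 and the median ranged from -0.51 to -0.20, where fits with 1 SRF-OE library assume that it varies like the GFP libraries.

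The ranges with 1 library left out were 0.46 to 0.91 for the log2 difference of Myh7 to Myh6, 1.23 to 2.18 for Tnni1 to Tnni3, 0.06 to 0.32 for Tnnt1 to Tnnt2, 1.01 to 4.96 for Myl7 to Myl2 and 1.17 to 3.43 for Myl4 to Myl3. Ratios of summed counts gave 1.52 for Tnni1 to Tnni3, 1.26 for Myl7 to Myl2 and 1.63 for Myl4 to Myl3. Within the replicate numbers that both groups have, the paired differences were 0.87, 2.04, 0.25, 4.38 and 3.43 for the 5 pairs in the same order. By construction these equal the differences without the library labelled GFP1, so they are no separate check. The labels do not say that a number pairs libraries, and deviations of same-numbered libraries correlated across genes at 0.41 for number 2 and -0.09 for number 3, so pairing was not established. The block changed no other call among the 10 genes. Over all genes, edgeR called 0 with the 5 libraries (873 higher and 1044 lower at an unadjusted p under 0.05), and the block 582 higher and 432 lower. DESeq2 called 11 higher and 213 lower of 1167 genes with an adjusted p. Without the library labelled GFP1, edgeR called 265 and 130, and DESeq2 853 and 832 of 13559. The alternatives without that library in the block or DESeq2, and the CM scaling, were chosen after seeing the data.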

Other observations

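Thyroid hormone is known to raise Myh6 and lower Myh7 in the heart. Of 16 genes that carry its signals, 14 were tested, 0 passed in either direction with the 5 libraries, and 1 was higher and 2 lower at an unadjusted p under 0.05, where 6.35% and 7.59% of all genes were, with a median log2 fold change of 0.10. When the library labelled GFP1 was left out, 0 passed by edgeR's adjusted p, where 1.98% of all genes were higher and 0.97% lower. At an unadjusted p under 0.05 in that fit, 2 were higher and 3 lower, where 1927 and 1869 of all 13397 genes tested were. The fit that blocks on the replicate number called 1 higher and 1 lower (4.23% and 3.14% of all genes), Dio2 (1.94, adjusted p = 0.026) and Rxrg (-0.76, adjusted p = 0.037). The receptor Thra was at 59.0 and 51.2 CPM in SRF-OE and 50.7, 51.9 and 53.0 CPM in GFP, and Klf9, a hormone-induced factor, had a log2 fold change of 0.14. The retinoid receptors Rxrb and Rxrg, partners of the thyroid hormone receptors, had -0.16 and -0.63. Rxrg was at 66.4 and 56.4 CPM in SRF-OE and 77.5, 98.9 and 109 CPM in GFP. It was lower without overlap between groups, where 17.3% of all genes were. Dio2, named after its values were seen, makes the active hormone inside cells and was at 4.57 and 10.3 CPM in SRF-OE and 3.94, 1.10 and 2.84 CPM in GFP (log2 fold change 1.51, edgeR adjusted p = 0.36).

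Of 15 transcription factors of cardiac filament genes, all were tested, 0 passed in either direction with the 5 libraries, and 3 were higher and 0 lower at an unadjusted p under 0.05, where 6.35% and 7.59% of all genes were, with a median log2 fold change of -0.16. When the library labelled GFP1 was left out, 1 was called higher, Nfatc4, and 1 lower, Prox1 (1.98% and 0.97% of all genes), at 3.11 and -0.79 (edgeR adjusted p = 0.047 for both). With the replicate number as a blocking factor, Nfatc4 was higher and Prox1 and Hopx lower, that is 1 and 2 of 15 (4.23% and 3.14%), with Hopx at -0.88 (adjusted p = 0.046). Nfatc4 and Prox1 are named after their values were seen. Myocd, the cofactor that binds SRF at CArG boxes, was at 275 and 419 CPM in SRF-OE and 215, 205 and 236 CPM in GFP. It was higher in SRF-OE without overlap, where 16.1% of all genes were. Its log2 fold change was 0.66 (standard error 0.19, edgeR adjusted p = 0.35). Hopx, which binds SRF and restrains it, had a log2 fold change of -0.64, and Gata4 and Mef2a had -0.21 and -0.16.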
